A study of Mus musculus with 8 samples.

Results

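The cells described here were the alveolar progenitors of pregnant mice (cluster C10) and the luminal progenitors of nulliparous mice (cluster C6). Members were taken from the cluster assignment that the authors deposited for each cell, as the C10 cells of the gestation libraries and the C6 cells of the nulliparous libraries that passed all quality filters. This gave 89 and 126 cells in the 2 gestation mice, 215 of 224 C10 cells in all, and 372 and 316 cells in the 2 nulliparous mice, 688 of 726 C6 cells in all. Together they made up 903 of 25010 cells that passed quality in the whole series. Mammary epithelial cells had been isolated from C57BL/6N mice at 4 stages, with 2 mice per stage and 1 library per mouse. Nulliparous mice (NP) were 8 weeks old and had never been pregnant, and gestation mice (G) were at day 14.5 of pregnancy, with their age not given in the sources used here. Cells with EpCAM, an adhesion protein of epithelial cells, had been sorted, after dead cells and cells with CD31, CD45 or Ter119 (endothelial, white blood and red blood cell surface markers) were gated out. Transcripts were counted by unique molecular identifiers (UMIs, each marking 1 captured transcript) with the 10x Chromium system, which reads the 3' end of each transcript.

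Luminal progenitors are cells of the inner mammary layer with little oestrogen or progesterone receptor, and they are known for Kit, Aldh1a3 and Elf5. In pregnancy, progesterone and prolactin drive such cells to divide and to form alveoli, and the factors Stat5 and Elf5 then switch on the genes of milk proteins. The caseins that result are the main proteins of milk, and fully secretory cells appear only around birth.

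The comparison joined a difference of stage to a difference of cluster. C10 held 2 and 1 cells of the NP mice, and C6 held 2 and 3 cells of the G mice, so neither cluster could be compared across stages, and the effect of pregnancy and that of cell type cannot be told apart. The clusters had also been made from the same transcripts that are compared here. An adjusted p therefore sets a difference against a spread between mice that is in part shared over genes. It is no independent evidence that the clusters are different cells.

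The replicate was the mouse, with UMIs summed over the cells of a cluster in it (2 against 2). The sums held 1307070 and 1602896 UMIs in C10 and 3313638 and 2411364 UMIs in C6, and the median cell held 9657 and 8870 UMIs in C10 and 7767.5 and 6597 UMIs in C6. The largest cell held 116555 and 41931 UMIs in C10 and 53088 and 25376 UMIs in C6. The C10 sum of G mouse 1 thus holds 1 cell of very high total, and whether it was more than 1 cell was not tested. Cells of more than 2 times the median total were left out in an alternative, which kept 71 and 98 C10 cells. Levels are given as UMIs per 1000000 UMIs of the sum (CPM), first for mouse 1 and then for mouse 2 of each stage. In such sums, fewer cells with a transcript and less RNA per cell cannot be told apart. Genes were tested with edgeR's quasi-likelihood test and Benjamini-Hochberg adjustment, and all adjusted p-values below are from that test unless another is named.

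A large share of the genes differed between C10 and C6. Of 9564 genes tested, 4540 (47.5%) passed an adjusted p of 0.05, 2324 (24.3%) with a higher level in C10 and 2216 (23.2%) with a lower one. The median log2 fold change over all genes tested was -0.01. Many differences were small, and 2025 of the genes that passed differed by less than 2-fold. Against a 2-fold change, 759 genes (7.94%) passed at an FDR of 0.01, of which 445 (4.65%) were higher and 314 (3.28%) lower in C10. Since nearly 1 gene in 2 passed, counts of list members are given beside these shares.

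**Figure D1:**
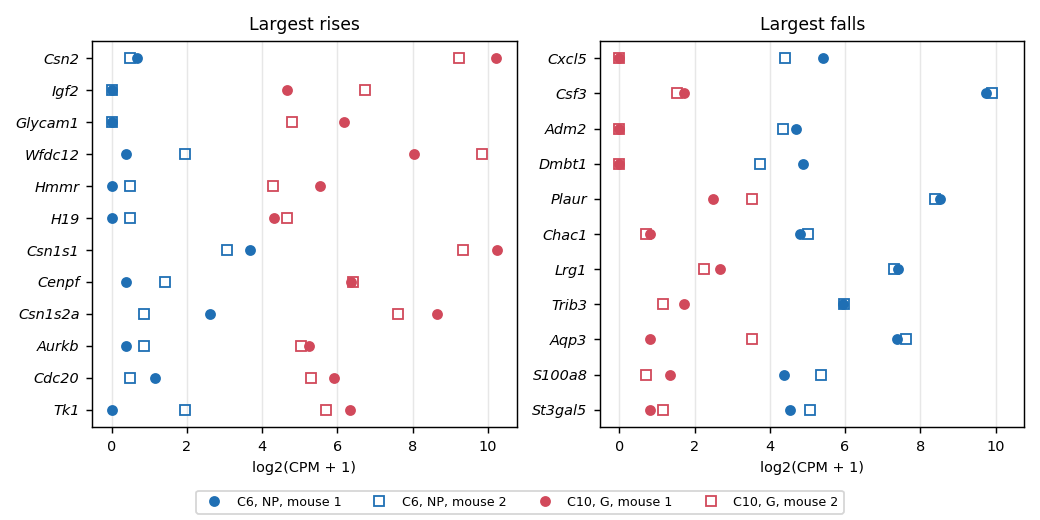
Levels of the 12 genes with the largest rise (left) and 11 of the 12 with the largest fall (right) from C6 of NP mice to C10 of G mice, as log2(CPM + 1) on the horizontal axis, with filled circles for mouse 1 and open squares for mouse 2 of each stage. Csn2 and Igf2 lead the rises, and Cxcl5 and Csf3 lead the falls. No pair of groups overlaps, as the rule that picked these genes required.

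The markers showed C10 as luminal cells with some progenitor genes and a low level of milk transcripts. Krt8, a keratin of luminal cells, stood at 6329 and 5131 CPM in C6 and 1837 and 2333 CPM in C10 (log2 fold change -1.47 ± 0.14, adjusted p = 7.33e-06). Its partner Krt18 fell in the same way, from 9818 and 7699 to 2538 and 3138 CPM (log2 fold change -1.64 ± 0.14, adjusted p = 3.17e-06). In the basal cells of the G mice (C13) Krt8 was at 632 and 629.5 CPM and Krt18 at 183 and 182 CPM, below C10 in every mouse. Pgr, the progesterone receptor, was not tested for low counts, and Esr1, the oestrogen receptor, stood at 5.13 and 6.64 CPM in C6 and 2.30 and 2.50 CPM in C10 (adjusted p = 0.0613). Wap, a major whey protein of milk, was at 0.302 and 0 CPM in C6 and 4.59 and 0 CPM in C10 and was not tested. Lalba, which completes the enzyme that makes lactose, was lower in C10, at 7.85 and 19.9 CPM in C6 against 1.53 and 0 CPM, and only 2 UMIs were seen in C10 against 74 in C6, a ratio of 18.8 with a 95% counting interval of 5.03 to 158 (adjusted p = 0.0022). The Lalba UMIs of C6 lay in 11 of 372 and 11 of 316 cells, and 1 cell held 60.4% of those of NP mouse 2. Counting intervals cover counting error only and take no account of UMIs that lie together in few cells. Wap and Lalba, 2 of the milk genes by which the cluster is labelled alveolar, were thus near 0 in the sums of C10.

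The 4 progenitor markers split. Kit, the receptor of stem cell factor, stood at 63.7 and 78.8 CPM in C6 and 206 and 233 CPM in C10 (log2 fold change 1.62 ± 0.15, adjusted p = 5.91e-06). Elf5, which drives the alveolar lineage as a transcription factor, stood at 54.0 and 76.7 CPM in C6 and 256 and 208 CPM in C10 (log2 fold change 1.82 ± 0.18, adjusted p = 7.92e-06). Both genes rose, and with Kit, 82.0% and 82.5% of C10 cells held at least 1 UMI against 38.2% and 39.9% of C6 cells. Thinned to 2000 UMIs per cell, the shares of cells with Kit were 30.3% and 33.3% in C10, 10.8% and 14.6% in C6, and 0.190% and 0.842% in the basal cells of the G mice. Aldh1a3, an enzyme that makes retinoic acid, stood at 2035 and 1759 CPM in C6 and 379 and 467 CPM in C10 (log2 fold change -2.17 ± 0.14, adjusted p = 4.84e-07). Cd14, a receptor for bacterial products, stood at 292 and 280.3 CPM in C6 and 136 and 182 CPM in C10 (log2 fold change -0.85 ± 0.15, adjusted p = 6.00e-04). Aldh1a3 and Cd14 therefore fell while Kit and Elf5 rose, and the call on Cd14 was lost when dividing cells were left out (adjusted p = 0.169).

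Over the wider list of 14 luminal progenitor genes tested, 5 were higher and 7 lower in C10, with a median log2 fold change of -0.38. Ehf, a transcription factor of the same family as Elf5, was at 149 and 145 CPM in C6 and 515 and 485 CPM in C10 (log2 fold change 1.75 ± 0.12, adjusted p = 7.37e-07). Among the genes that fell, Hmga1, a chromatin protein, went from 93.9 and 129 to 12.2 and 12.5 CPM (log2 fold change -3.17 ± 0.25, adjusted p = 1.60e-06), and Itga2, a collagen receptor subunit, from 62.2 and 51.8 to 6.89 and 1.87 CPM (log2 fold change -3.78 ± 0.35, adjusted p = 5.61e-06). Notch3, a Notch receptor, also rose (0.92 on the log2 scale), and Lif (-2.59), a cytokine, and Fosl1 (-2.69), an AP-1 factor, fell. Sox10 and Sox9, transcription factors of mammary progenitors, had log2 fold changes of 0.14 and -0.01 and passed no test.

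Transcripts of other cell types were low in both clusters. The summed level of 15 basal markers was 394 and 230 CPM in C6 and 348 and 550 CPM in C10, against 24873 and 25544 CPM in the basal cells of the NP mice (C12). For 12 immune markers the sum was 24.7 and 30.7 CPM in C6 and 56.6 and 60.5 CPM in C10, with Ptprc, Cd3e and Cd79a among the 9 markers too low to test, and 2 of 3 tested members, Lyz2 and Cd74, were higher in C10. Fibroblast markers summed to 14.8 and 208 CPM in C6 and 31.4 and 23.1 CPM in C10, and none of 3 tested passed. Endothelial and pericyte markers summed to 16.6 and 20.3 CPM in C6 and 22.95 and 23.1 CPM in C10, and red cell and adipocyte transcripts to 0.905 and 2.49 CPM in C6 and 3.83 and 19.3 CPM in C10. The part of these cells in the results was not tested.

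Milk protein transcripts were among the largest rises. Csn2, the β-casein gene, had 3 UMIs in all C6 cells and 2522 in all C10 cells, 0.604 and 0.415 CPM against 1188 and 605 CPM, a ratio of 1654 with a 95% counting interval of 565 to 8025 (adjusted p = 5.64e-08). Csn1s1, the αs1-casein gene, rose from 11.8 and 7.46 to 1219.5 and 646 CPM (log2 fold change 6.54 ± 0.32, adjusted p = 8.70e-08). Csn1s2a, which encodes a further α-casein, rose from 5.13 and 0.829 to 403 and 196 CPM (log2 fold change 6.46 ± 0.44, adjusted p = 6.22e-07). All 3 caseins were higher in G mouse 1 than in G mouse 2, and both were far above both NP mice. In G mouse 1 the highest single cell held 26.5% of the Csn2 UMIs of C10. Glycam1, a mucin-like milk protein, had no UMI in C6 and 136 in C10, 71.2 and 26.8 CPM, which was at least 89.2-fold higher on a floor of 3 UMIs over the 2 NP mice (adjusted p = 1.52e-05). Of 7 milk protein genes tested, 5 were higher and Lalba was lower, and the median log2 fold change was 6.46.

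The sequences before the start sites of both leading caseins are shown because caseins are the textbook targets of Stat5, whose palindromic site is written TTCNNNGAA. Both are RefSeq sequence of build GRCm38.p6, 250 bases that end just before the annotated start, 5′ to 3′ on the strand of the gene, with each match to these letters in capitals. The Csn2 stretch lies at chr5:87699426-87699675 on the minus strand and the Csn1s1 stretch at chr5:87665958-87666207 on the plus strand. Csn1s1, Csn2, Csn1s2a and Csn3 themselves lie in that order on chromosome 5 of GRCm38, from position 87666208 to 87932665.
Csn2: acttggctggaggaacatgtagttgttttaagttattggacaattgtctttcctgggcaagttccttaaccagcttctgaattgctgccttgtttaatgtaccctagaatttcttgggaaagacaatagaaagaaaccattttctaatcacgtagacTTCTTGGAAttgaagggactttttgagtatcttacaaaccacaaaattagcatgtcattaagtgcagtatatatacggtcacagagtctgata
Csn1s1: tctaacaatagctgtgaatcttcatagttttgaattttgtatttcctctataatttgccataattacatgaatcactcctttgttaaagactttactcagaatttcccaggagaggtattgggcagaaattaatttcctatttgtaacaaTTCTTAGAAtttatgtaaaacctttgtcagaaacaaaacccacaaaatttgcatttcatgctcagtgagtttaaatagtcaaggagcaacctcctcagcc
Each stretch held 1 match. In windows of 300 bases, from 250 before to 50 after the start, 4 of 6 milk protein genes with a window in the table (66.7%) held these letters, against 9.55% of all 27025 genes with a window. Csn3 had no window in the table.

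The basal cells of the same G mice carried milk transcripts too. Basal cells are not known to make milk, so their level (cluster C13, 525 and 594 cells) is given as a guide to the background of milk RNA in these libraries. The median C13 cell held 6201 and 6060 UMIs, fewer than the median C10 cell (9657 and 8870). Background RNA need not be the same share of UMIs in cells of unlike totals. The level in C13 is thus no exact measure of the background in C10, whose part was not tested. Csn2 stood at 635 and 354 CPM in C13, and the level in C10 was 1.87 and 1.71 times that of C13 of the same mouse. For Csn1s1 the C10 level was 2.95 and 2.75 times that of C13, and for Csn1s2a it was 0.773 and 0.780 times. Glycam1 in C10 was at 0.784 and 0.938 times its level in C13. At 2000 UMIs per cell, Csn2 was seen in 74.2% and 60.3% of C10 cells and in 71.4% and 49.7% of C13 cells. These shares have the same limit, since thinning keeps the share of background RNA in a cell. The change from C12 to C13 of the basal cells was 10.58 ± 0.44 for Csn2 and 8.04 ± 0.43 for Csn1s2a on the log2 scale, against 6.46 ± 0.44 for Csn1s2a in the luminal comparison. In C10 the caseins that passed the test were therefore at 0.773 to 2.95 times the level in cells that are not known to make them, and far below the level of the differentiated alveolar cells (C8) of the same mice, with Csn2 at 3.82% and 2.98% of C8.

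Some other transcripts of the secretory lineage stood well above the basal cells of the same mice. Csn3, the κ-casein gene, was at 1182 and 553 CPM in C10, which was 10.7 and 7.78 times its level in C13, and at 743 and 1413 CPM in C6 already. The 2 groups overlapped and Csn3 did not pass (log2 fold change -0.34 ± 0.31, adjusted p = 0.395), with its sign depending on the mice kept (log2 fold change 0.22 without NP mouse 2 and 0.11 without G mouse 2). Wfdc18, a small secreted protease inhibitor of milk and involution, went from 4454 and 5639.5 to 11981 and 8980.0 CPM (log2 fold change 1.04 ± 0.15, adjusted p = 1.62e-04), 45.9 and 36.5 times the level in C13. Muc15, a mucin of the milk fat globule, went from 151 and 186 to 986 and 849.7 CPM (log2 fold change 2.43 ± 0.15, adjusted p = 3.08e-07), 22.4 and 19.9 times the level in C13. Csn3 and Wfdc18 were abundant in nulliparous luminal progenitors before any pregnancy, and of the 3 genes Wfdc18 and Muc15 rose.

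**Figure D2:**
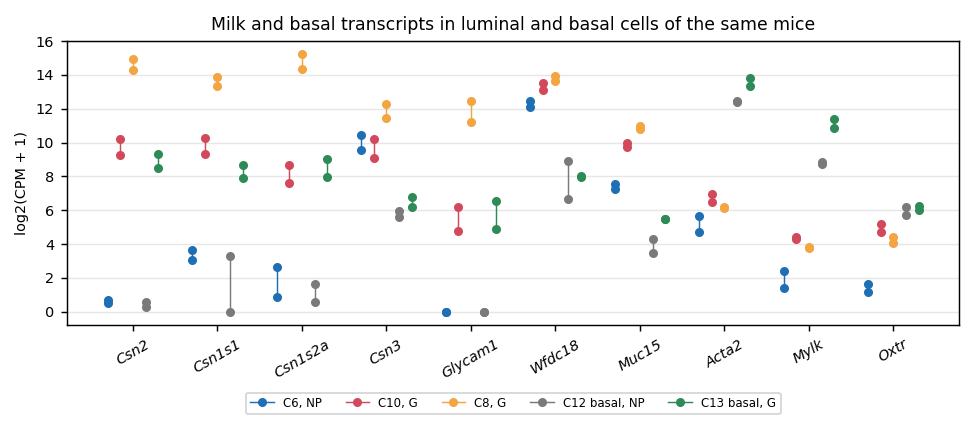
Levels of milk transcripts and of basal transcripts as log2(CPM + 1) in 5 sums per gene, C6 and C12 of NP mice and C10, C8 and C13 of G mice, with 1 point per mouse and a line joining both mice. Csn2, Csn1s2a and Glycam1 in C10 lie close to the basal cells C13 of the same mice, while Csn3, Wfdc18 and Muc15 lie far above them.

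Transcripts of the contractile basal layer gave the reverse check. Acta2, smooth muscle actin, stood at 50.1 and 24.9 CPM in C6 and 88.0 and 122 CPM in C10 (log2 fold change 1.45 ± 0.25, adjusted p = 5.93e-04), and Mylk, a myosin kinase, at 4.22 and 1.66 CPM and 20.7 and 18.7 CPM (log2 fold change 2.62 ± 0.38, adjusted p = 1.76e-04). Both were at or near 1% of their level in C13 of the same mice (0.620% and 1.16% for Acta2, 0.778% and 1.02% for Mylk), and 1 cell of G mouse 1 held 55.6% of its Mylk UMIs in C10. Krt14, the basal keratin, was not called (log2 fold change 0.35 ± 0.30, adjusted p = 0.351) and had its sign reversed without G mouse 2 or without dividing cells. Oxtr, the receptor of oxytocin, by which basal cells contract at milk ejection, was different in size. It went from 1.21 and 2.07 CPM in C6 to 36.0 and 24.95 CPM in C10 (log2 fold change 4.20 ± 0.40, adjusted p = 6.33e-06), which was 48.1% and 39.8% of the level in C13. Oxtr UMIs were found in 26 of 89 and 31 of 126 C10 cells, against 3 of 372 and 4 of 316 C6 cells, and the level in C10 was 176% and 157% of that in C8. The change of Oxtr from C12 to C13 was 0.25 ± 0.17 on the log2 scale and did not pass (adjusted p = 0.242). In total, 6 of 13 basal markers tested were higher in C10 and none was lower. The count was 3 higher and 1 lower without G mouse 2, 2 higher of 7 at 2000 UMIs per cell and with the filter of the study, and 1 higher of 7 without dividing cells, where Acta2 had a log2 fold change of 0.39 (adjusted p = 0.653).

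Genes of hormone-sensing cells, the other luminal lineage, were mostly lower in C10. Of 14 tested, 8 were lower and 2, Tnfsf11 (described below) and Wnt4, higher, with a median log2 fold change of -1.25. Wnt4 and Tnfsf11 were not called without the 5 cells of high Igf2 described below. Prlr, the prolactin receptor, stood at 80.6 and 90.4 CPM in C6 and 34.4 and 32.4 CPM in C10 (log2 fold change -1.36 ± 0.17, adjusted p = 4.90e-05). Areg, a growth factor that hormone-sensing cells release under oestrogen, fell from 154 and 168 to 16.1 and 29.9 CPM (log2 fold change -2.78 ± 0.21, adjusted p = 1.46e-06). In basal cells Prlr fell further (-5.76 ± 0.24) and so did Cited1, a coactivator of the oestrogen receptor (-4.84 ± 0.28 in basal cells, -1.24 ± 0.44 in luminal cells, adjusted p = 0.0364). Calls on Prlr were lost at 2000 UMIs per cell and without dividing cells (adjusted p = 0.0766 and 0.144), and those on Cited1 under DESeq2, without G mouse 1 and with equal cell numbers (adjusted p = 0.128, 0.238 and 0.261). In G mouse 2, 4 of the cells of high Igf2 held 89.5% of the Cited1 UMIs of C10, and the other C10 cells were at 2.32 and 1.32 CPM. Of 15 members tested in the basal cells 11 were lower in G and none higher. In C4, the hormone-sensing cells of the NP mice, these markers summed to 16308 and 15042 CPM, in C6 to 5016 and 4978 CPM and in C10 to 947 and 1361 CPM. In the basal cells the sum was 4087 and 3944 CPM in NP and 1666 and 1777 CPM in G, so this RNA moved with the stage in basal cells as well, and the part of free RNA in the falls was not tested.

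The prolactin and Stat5 pathway gave no common direction. Of 16 genes tested, 6, with Igf2 among them, were higher and 2 lower, and the median log2 fold change was 0.36. Stat5b, a transcription factor activated by the prolactin receptor, went from 5.73 and 10.4 to 24.5 and 22.5 CPM (log2 fold change 1.57 ± 0.33, adjusted p = 0.00191), and its call was lost without cells of high UMI totals (adjusted p = 0.0547). Stat5a had a log2 fold change of 0.70 and was not called (adjusted p = 0.0658). Socs3, an inhibitor of cytokine receptors, fell by 1.88 on the log2 scale (adjusted p = 1.53e-04), while Socs2 (0.31) and Cish (0.07), inhibitors that Stat5 induces, did not pass.

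A separate group of signals came from very few cells. Igf2, an insulin-like growth factor, had no UMI in C6 and 202 in C10, 24.5 and 106 CPM, at least 132-fold higher (adjusted p = 6.54e-05). H19, the imprinted non-coding RNA that lies 72622 bases from Igf2 on chromosome 7 of GRCm38, had 1 UMI in C6 and 64 in C10, 0 and 0.415 CPM against 19.1 and 24.3 CPM, a ratio of 126 with a 95% counting interval of 21.8 to 5050.0 (adjusted p = 5.86e-06). Tnfsf11, the cytokine RANKL by which hormone-sensing cells make their neighbours divide, had 1 UMI in C6 and 43 in C10, 0.302 and 0 CPM against 6.89 and 21.2 CPM, a ratio of 84.6 with a 95% counting interval of 14.4 to 3418 (adjusted p = 1.65e-04). Wfdc12, a small whey acidic protein, was at 0.302 and 2.90 CPM in C6 and 264 and 926 CPM in C10 (log2 fold change 8.67 ± 0.74, adjusted p = 2.98e-06). All 4 genes were higher in both G mice than in both NP mice.

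Within C10, 5 of 215 cells, 1 in G mouse 1 and 4 in G mouse 2, held nearly all of these UMIs. Each of the 5 had at least 27 UMIs of Igf2, and no other C10 cell had more than 3. They held 97.0% of the Igf2, 98.4% of the H19, 97.7% of the Tnfsf11 and 92.9% of the Wfdc12 UMIs of C10. In them Igf2 was at 1694 and 1941 CPM in the 2 mice, against 3.87 and 0.660 CPM in the other C10 cells and 2726 and 4575 CPM in C5, the hormone-sensing cells of the G mice (20 and 41 cells). Tnfsf11 was at 565 and 379 CPM in them, 0 and 0.660 CPM in the other C10 cells and 617 and 677 CPM in C5. Wfdc12 was at 16623 and 16477 CPM in them, against 62.0 and 32.3 CPM in the other C10 cells and 48555 and 29957 CPM in C5. Prlr was also high in them, at 439 and 299 CPM against 29.4 and 17.2 CPM, while they held no UMI of Pgr. Their median UMI totals, 15942 and 19679, lay above those of all C10 cells.

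Without these 5 cells, a setting added after the data were seen, Igf2, H19 and Tnfsf11 no longer passed the filter on low counts in C10, and no value could be given for them. Wfdc12 was still called. Over all genes 4573 were called in place of 4540, and of the other genes named here that had passed, Wnt4 alone lost its call.

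Rspo1, a secreted activator of Wnt signalling that the naming rule did not pick and that was chosen after its values were seen, was spread evenly by contrast. It was at 29.6 and 17.4 CPM in C6 and 448 and 372 CPM in C10 (log2 fold change 4.07 ± 0.20, adjusted p = 8.22e-08). UMIs of Rspo1 were found in 82 of 89 and 112 of 126 C10 cells. In basal cells it was at 29.3 and 29.5 CPM in G, far below C10.

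Genes of cell division were higher in C10 as a group. Of 40 mitosis genes tested, 39 were higher and none lower, with a median log2 fold change of 4.43 (3.39 without NP mouse 1 and 5.54 without NP mouse 2), and the exception was Ube2s (-0.29). Cenpf, a kinetochore protein, went from 0.302 and 1.66 to 81.1 and 84.2 CPM (log2 fold change 6.46 ± 0.36, adjusted p = 1.86e-07). Cdc20, which activates the anaphase-promoting complex, went from 1.21 and 0.415 to 59.7 and 38.7 CPM (log2 fold change 5.70 ± 0.43, adjusted p = 1.14e-06). Aurkb, a mitotic kinase, had 3 UMIs in C6 and 99 in C10, 0.302 and 0.829 CPM against 36.7 and 31.8 CPM, a ratio of 64.9 with a 95% counting interval of 21.6 to 320.2 (adjusted p = 1.21e-06). Hmmr, a spindle protein, had 1 UMI in C6 and 89 in C10, 45.1 and 18.7 CPM, a ratio of 175 with a 95% counting interval of 30.6 to 6993 (adjusted p = 1.62e-05). Mki67 (0.604 and 11.2 against 119 and 112 CPM, 4.46 ± 0.45) and Top2a (2.11 and 15.8 against 181 and 163 CPM, 4.40 ± 0.39), markers of cycling cells, rose as well. NP mouse 2 held more of both than NP mouse 1, and both G mice were above it.

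Genes of DNA replication moved with them. Of 33 tested, 32 were higher and none lower (median 2.74), with Slbp (0.47) the exception. Tk1, thymidine kinase, went from 0 and 2.90 to 79.6 and 51.2 CPM (log2 fold change 5.64 ± 0.53, adjusted p = 6.15e-06), Mcm5, a subunit of the replicative helicase, from 1.51 and 6.64 to 52.0 and 47.4 CPM (log2 fold change 3.70 ± 0.39, adjusted p = 1.47e-05), and Rrm2, which makes deoxyribonucleotides, from 0 and 3.32 to 52.8 and 28.1 CPM (log2 fold change 4.75 ± 0.61, adjusted p = 6.99e-05). DESeq2 did not call Rrm2 (adjusted p = 0.0991), and called 29 of the 33.

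Start site sequences of 2 mitosis genes that hold it are shown because many genes of this group are known to carry a cell cycle homology region, TTTGAA on either strand, near the start. They are given as for the caseins, 250 bases of GRCm38.p6 each, Cdc20 at chr4:118437344-118437593 and Mki67 at chr7:135716380-135716629, both on the minus strand.
Cdc20: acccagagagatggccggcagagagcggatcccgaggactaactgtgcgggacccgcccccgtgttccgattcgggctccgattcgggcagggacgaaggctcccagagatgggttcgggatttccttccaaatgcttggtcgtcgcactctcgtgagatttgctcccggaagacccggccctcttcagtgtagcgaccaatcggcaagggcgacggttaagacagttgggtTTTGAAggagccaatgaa
Mki67: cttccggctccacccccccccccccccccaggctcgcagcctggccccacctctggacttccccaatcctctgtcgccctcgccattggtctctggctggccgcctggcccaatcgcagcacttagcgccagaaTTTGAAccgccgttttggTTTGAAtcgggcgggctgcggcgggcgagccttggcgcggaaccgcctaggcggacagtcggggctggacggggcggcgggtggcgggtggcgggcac
Cdc20 held 1 match and Mki67 held 2, and the same stretches of Cenpf and Hmmr held none. Over windows of 300 bases, 24 of 33 mitosis genes with a window (72.7%) held these letters, against 20.2% of all 27025 genes with a window and 13.7% of the genes tested here. Among DNA replication genes, 12 of 28 with a window (42.9%) held the E2F site, written TTT, then 2 letters that are each C or G, then CGC, on either strand, against 2.605% of all genes and 5.19% of the genes tested. The match is a description of the letters and not a site.

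The regulators that control entry into the cycle were mostly higher. Of 19 tested, 14 were higher and 4 lower. Ccnd1, cyclin D1, went from 178 and 214 to 486 and 529 CPM (log2 fold change 1.36 ± 0.14, adjusted p = 1.10e-05), its kinase Cdk4 from 92.6 and 86.7 to 291 and 265 CPM (log2 fold change 1.62 ± 0.13, adjusted p = 1.75e-06), and E2f1, the transcription factor they release, from 2.72 and 4.98 to 36.7 and 31.2 CPM (log2 fold change 3.16 ± 0.33, adjusted p = 1.28e-05). Each step of this axis was therefore higher in C10. Inhibitors did not share 1 direction. Cdkn1a (p21), the inhibitor that p53 induces, fell from 321 and 303 to 81.9 and 67.4 CPM (log2 fold change -2.08 ± 0.14, adjusted p = 6.22e-07), while Cdkn1b (p27) rose from 32.3 and 41.1 to 99.5 and 68.6 CPM (log2 fold change 1.18 ± 0.20, adjusted p = 4.89e-04). Cdkn2c (3.11) and Cdkn2d (2.34), inhibitors of Cdk4, rose too. Myc, a growth-promoting transcription factor, fell from 91.4 and 85.01 to 45.9 and 51.8 CPM (log2 fold change -0.86 ± 0.15, adjusted p = 6.72e-04).

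The share of cells with mitosis transcripts was compared with every cell thinned to 2000 UMIs. At least 2 UMIs of the 40 mitosis genes were found in 60.7% of C10 cells of G mouse 1 (95% interval 49.7% to 70.9%, exact binomial) and in 54.8% of G mouse 2 (45.7% to 63.6%). The shares in C6 were 6.18% (3.96% to 9.13%) and 8.54% (5.71% to 12.2%). The difference of means was 50.4 percentage points, with both G mice above both NP mice. An exact permutation test of 2 against 2 mice cannot give a two-sided p below 0.333, which is the value it gave. C8, the differentiated alveolar cells of the same G mice, stood in the same range, at 59.3% and 54.9%. C13 was at 21.0% and 20.5%, and C12 at 8.33% and 7.09%. Without thinning the shares were 87.6% and 89.7% in C10 and 52.2% and 40.2% in C6.

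**Figure D3:**
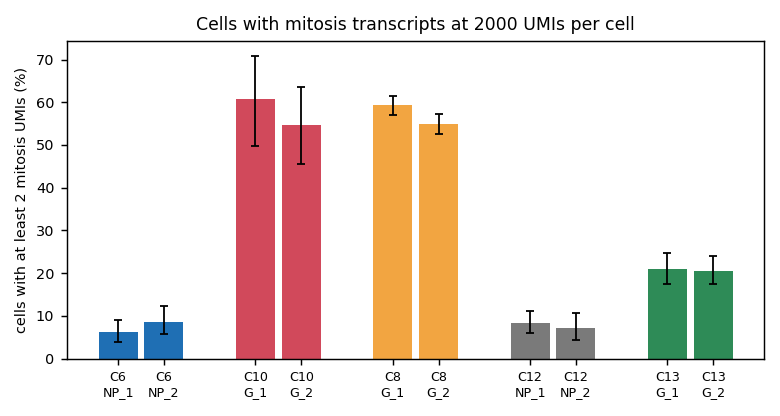
Share of cells (%) with at least 2 UMIs of mitosis genes after thinning each cell to 2000 UMIs, 1 bar per mouse and cluster, with 95% exact binomial intervals that cover counting error only. C10 and C8 of the G mice lie between 54.8% and 60.7%, and C6 of the NP mice at 6.18% and 8.54%.

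Leaving out cells with more than 2 mitosis UMIs, the setting called without dividing cells, left 16 and 26 C10 cells and 268 and 249 C6 cells. This cut was made on cells that were not thinned, so it also depends on the UMI total of a cell. At least 3 mitosis UMIs were held by 28.0% and 21.2% of C6 cells before thinning, and by 0.806% and 1.58% at 2000 UMIs. Calls lost in this setting therefore cannot be put down to dividing cells alone. The mitosis genes then lost all calls, as the choice of cells fixes, with 5 genes still tested. DNA replication genes were higher in 7 of 15 still tested and lower in none (median 1.70). Over all genes 1359 of 7381 were called, so that this comparison rested on few cells.

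Genes of the EGF family were mostly lower. Of 14 genes of this family and its feedback tested, 9 were lower and 3 higher (median -0.88). Hbegf, a ligand of the EGF receptor, fell from 1269.6 and 747 to 194 and 174 CPM (log2 fold change -2.47 ± 0.21, adjusted p = 2.77e-06), the receptor Egfr from 61.6 and 57.2 to 15.3 and 28.1 CPM (log2 fold change -1.43 ± 0.23, adjusted p = 3.67e-04), and Errfi1, which feeds back on it, from 712 and 574 to 261 and 331 CPM (log2 fold change -1.13 ± 0.15, adjusted p = 8.92e-05). Ligand, receptor and feedback inhibitor fell together, though Egfr was not called without dividing cells (log2 fold change -1.18, adjusted p = 0.0813). In the basal cells of the same mice Errfi1 rose (2.60 ± 0.13) and so did Egfr (0.80 ± 0.15). Adm2, a peptide of the calcitonin family, fell from 24.7 and 19.5 CPM to no UMI in either G mouse, at least 21.9-fold lower (adjusted p = 1.52e-05). Pgf, a vascular growth factor, fell from 29.3 and 26.1 to 6.12 and 8.73 CPM (log2 fold change -1.89 ± 0.29, adjusted p = 2.54e-04), where the basal cells rose (2.74 ± 0.24). The luminal call on Pgf was lost at 2000 UMIs per cell (log2 fold change -1.35, adjusted p = 0.0766).

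The insulin and IGF genes moved in both directions, with 6 of 18 higher and 3 lower (median 0.09). Igfbp5, an IGF-binding protein, fell from 734 and 997 to 352 and 335 CPM (log2 fold change -1.35 ± 0.16, adjusted p = 3.15e-05) and rose in basal cells (2.01 ± 0.12). Irs1 (2.05) and Irs2 (1.07), adaptors of the insulin and IGF receptors, rose. The receptors Igf1r (-0.18) and Insr (0.16) did not pass.

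Chemokines and defence proteins held several of the largest falls. Of 20 genes of this list tested, 15 were lower and 3 higher, with a median log2 fold change of -2.17. Csf3, the growth factor of granulocytes, went from 852 and 952 to 2.30 and 1.87 CPM (log2 fold change -8.75 ± 0.24, adjusted p = 1.12e-09), with all 4 mice close to their group. Cxcl1 went from 2651 and 2837 to 404 and 193 CPM (log2 fold change -3.23 ± 0.25, adjusted p = 1.49e-06) and Cxcl2 from 955 and 1006 to 97.9 and 50.5 CPM (log2 fold change -3.76 ± 0.22, adjusted p = 2.34e-07), both chemokines that draw neutrophils. Cxcl5, of the same group, was at 41.6 and 20.3 CPM in C6 and had no UMI in C10, at least 31.7-fold lower (adjusted p = 4.60e-05). Its UMIs lay in only 26 of 372 and 11 of 316 C6 cells.

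Antibacterial proteins fell with the chemokines. Lcn2, which binds bacterial iron carriers, went from 3252 and 3485 to 659 and 578 CPM (log2 fold change -2.46 ± 0.12, adjusted p = 9.69e-08). S100a8, a calprotectin subunit, had 162 UMIs in C6 and 3 in C10, 19.9 and 39.8 against 1.53 and 0.624 CPM, a ratio of 27.4 with a 95% counting interval of 9.23 to 134 (adjusted p = 9.00e-05). The S100a8 UMIs of C6 lay in only 15 of 372 and 16 of 316 cells, with 31.8% and 35.4% of them in 1 cell of each mouse. Dmbt1, a mucosal scavenger protein, was at 28.7 and 12.4 CPM in C6 with no UMI in C10, at least 21.2-fold lower (adjusted p = 1.68e-04), and Lrg1, an acute phase glycoprotein, went from 168 and 156 to 5.36 and 3.74 CPM (log2 fold change -5.18 ± 0.23, adjusted p = 5.64e-08). Ltf (-2.09), Slpi (-2.24) and Chil1 (-3.61) fell as well. The members that rose were Muc15, Wfdc18 and Tslp (2.37), a cytokine of epithelia.

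Antigen presentation went the other way. Of 22 genes of antigen presentation and interferon response tested, 15 were higher and 1 (Ifit1) lower, with a median of 0.95. B2m, the light chain of MHC class I, went from 370.3 and 352 to 1536 and 1145 CPM (log2 fold change 1.88 ± 0.15, adjusted p = 1.57e-06), Psmb8, an immunoproteasome subunit, from 83.6 and 80.0 to 286 and 229.6 CPM (log2 fold change 1.64 ± 0.14, adjusted p = 3.35e-06), and Tap1, a peptide transporter, from 15.4 and 13.3 to 44.4 and 38.7 CPM (log2 fold change 1.50 ± 0.22, adjusted p = 1.95e-04). The class I heavy chain H2-K1 rose (0.72) and H2-D1 (0.18) did not pass. The class II genes H2-Ab1 (2.15), H2-Eb1 (1.85) and Cd74 (1.66) were higher too, beside the immune marker sums given above, and the part of immune cells in them was not tested.

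Adhesion and surface genes were lower in the main. Of 26 genes of adhesion and junctions tested, 17 were lower and 5 higher (median -0.75). Epcam, the protein by which the cells had been sorted, fell from 5524 and 5249.7 to 1879 and 2186 CPM (log2 fold change -1.42 ± 0.12, adjusted p = 2.51e-06), Cldn4, a tight junction claudin, from 2187 and 1904 to 509 and 589 CPM (log2 fold change -1.91 ± 0.13, adjusted p = 6.22e-07), and Cd44, the hyaluronan receptor, from 319 and 321 to 79.6 and 84.8 CPM (log2 fold change -1.97 ± 0.13, adjusted p = 6.22e-07). Cldn8, a further claudin, rose from 2.11 and 2.49 to 28.3 and 20.6 CPM (log2 fold change 3.37 ± 0.36, adjusted p = 1.75e-05). The claudins thus did not share 1 direction.

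Among genes of epithelial shape and matrix, 13 of 26 were lower and 6 higher. Plaur, the urokinase receptor, fell from 365 and 332 to 4.59 and 10.6 CPM (log2 fold change -5.47 ± 0.23, adjusted p = 5.53e-08), and its ligand Plau had 64 UMIs in C6 and 2 in C10, 11.2 and 11.2 against 0.765 and 0.624 CPM, a ratio of 16.3 with a 95% counting interval of 4.32 to 137 (adjusted p = 1.71e-04). Plet1, a surface protein of epithelial progenitors, fell from 5612 and 6473 to 767 and 895 CPM (log2 fold change -2.88 ± 0.14, adjusted p = 6.74e-08). Other genes that rose are better known outside the luminal layer. Tnc, the matrix protein tenascin C, went from 1.51 and 1.66 to 21.4 and 21.2 CPM (log2 fold change 3.70 ± 0.38, adjusted p = 1.10e-05), Vim, the intermediate filament vimentin, from 9.66 and 19.9 to 87.2 and 97.3 CPM (log2 fold change 2.69 ± 0.26, adjusted p = 6.79e-06), and the keratin Krt23 from 12.1 and 12.03 to 109 and 131 CPM (log2 fold change 3.30 ± 0.19, adjusted p = 1.86e-07). Tnc was at 1.26 and 1.83 CPM in C13. Vim in C10 was 37.4% and 49.4% of its level in C13 of the same mouse and 916% and 902% of C8, and Krt23 was 79.2% and 109% of C13 and 615% and 435% of C8. Of the keratins, 5 of 11 were lower and Krt23 was the only one higher.

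In retinoid metabolism, which includes Aldh1a3, 4 of 7 genes tested were lower and 1, Dhrs3 (2.34), higher. Crabp2, which carries retinoic acid to the nucleus, fell from 149.7 and 159 to 82.6 and 69.9 CPM (log2 fold change -1.04 ± 0.14, adjusted p = 1.16e-04). Aqp3, a channel for water and glycerol, fell from 164 and 195 to 0.765 and 10.6 CPM (log2 fold change -4.86 ± 0.36, adjusted p = 1.03e-06), and St3gal5, a ganglioside synthase, had 152 UMIs in C6 and 3 in C10, 22.03 and 32.8 against 0.765 and 1.25 CPM, a ratio of 25.8 with a 95% counting interval of 8.65 to 126 (adjusted p = 2.16e-05).

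Several genes of amino acid supply and of the response to its shortage were among the falls, and the latter were no list with a count of its own. Chac1, a glutathione-degrading enzyme that Atf4 induces, had 164 UMIs in C6 and 2 in C10, 26.9 and 31.1 against 0.765 and 0.624 CPM, a ratio of 41.7 with a 95% counting interval of 11.4 to 347 (adjusted p = 4.81e-06). Trib3, a pseudokinase of the same response, fell from 61.0 and 62.2 to 2.30 and 1.25 CPM (log2 fold change -5.13 ± 0.34, adjusted p = 5.40e-07), and Mthfd2, the mitochondrial folate enzyme, from 238 and 204 to 20.7 and 23.1 CPM (log2 fold change -3.34 ± 0.17, adjusted p = 1.14e-07). Slc7a5, an importer of large neutral amino acids, fell from 89.6 and 75.9 to 14.54 and 16.8 CPM (log2 fold change -2.40 ± 0.20, adjusted p = 2.56e-06). All of these are known targets of Atf4, which itself had a log2 fold change of -0.66 (adjusted p = 7.91e-04). Of 11 amino acid transporters tested 6 were lower and 2 higher (median -1.26, and 0.01 with equal cell numbers, where 4 of 9 were lower), and of 33 translation factors and tRNA synthetases 17 were lower and 6 higher (median -0.57).

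Ribosome genes gave smaller changes. Of 30 genes of ribosome biogenesis, 13 were lower and 4 higher (median -0.48), and against a 2-fold change only Npm1, a nucleolar chaperone, passed, from 894 and 946 to 2651 and 2645 CPM (log2 fold change 1.51 ± 0.11, adjusted p = 1.28e-06). Of 79 cytosolic ribosomal proteins, 38 were higher and 5 lower, with a median of 0.26, and none passed against a 2-fold change. In basal cells 26 of 30 ribosome biogenesis genes were lower in G and none was higher.

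Glycolysis genes had no stable direction, and more genes of respiration were higher. Slc2a1, the glucose transporter GLUT1, fell from 218 and 218 to 33.7 and 44.9 CPM (log2 fold change -2.47 ± 0.16, adjusted p = 5.40e-07), and 7 of 17 glycolysis genes were lower against 4 higher (median -0.22). Without G mouse 2 this became 5 lower and 5 higher (median 0.03), and at 2000 UMIs per cell the median was 0.11. Of 53 nuclear genes of oxidative phosphorylation, 32 were higher and 2 lower (median 0.54), with Atp5c1 (1.43), an ATP synthase subunit, the highest. The mitochondrial share of UMIs per cell went the other way in its median, 0.575% and 0.552% in C10 and 0.654% and 0.688% in C6.

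Lipid genes rose in part. Fasn, fatty acid synthase, went from 8.45 and 5.81 to 33.7 and 29.3 CPM (log2 fold change 2.09 ± 0.28, adjusted p = 8.69e-05), Scd2, a desaturase, from 2.11 and 5.81 to 39.0 and 31.8 CPM (log2 fold change 3.21 ± 0.37, adjusted p = 2.84e-05), and Acly, which supplies acetyl-CoA, from 29.9 and 20.7 to 57.4 and 55.5 CPM (log2 fold change 1.12 ± 0.20, adjusted p = 8.00e-04). Btn1a1, butyrophilin of the milk fat globule, went from 23.8 and 32.3 to 72.7 and 51.2 CPM (log2 fold change 1.13 ± 0.22, adjusted p = 0.00136), while Plin2, which coats lipid droplets, fell from 166 and 151 to 125 and 102 CPM (log2 fold change -0.50 ± 0.14, adjusted p = 0.0105). Of 18 genes for the making and secretion of milk fat that were tested, 8 were higher and 4 lower (median 0.76). Calls on Acly and Plin2 were lost with cells thinned to 2000 UMIs (adjusted p = 0.0625 and 0.43), as was that on Btn1a1 (adjusted p = 0.312). Plin2 was also not called under DESeq2 (adjusted p = 0.0662) or without dividing cells (adjusted p = 0.0847). Its log2 fold change was -0.37 without G mouse 2. Btn1a1 was not called without cells of high UMI totals (adjusted p = 0.0819).

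In cholesterol synthesis 10 of 21 genes were higher and 2 lower (median 0.67). At 2000 UMIs per cell 3 of 10 were higher and 2 lower, with a median of -0.35, DESeq2 called 6 higher, and without dividing cells 4 were higher (median 0.12). Hmgcs1, an early enzyme, went from 32.9 and 32.3 to 59.7 and 46.2 CPM (log2 fold change 0.67 ± 0.19, adjusted p = 0.011), a call that DESeq2 did not give (adjusted p = 0.0979) and that was lost without G mouse 1, at 2000 UMIs per cell and without cells of high UMI totals (adjusted p = 0.105, 0.167 and 0.0893). The sterol element TCACNCCAC, on either strand, was found in the window of 1 of 17 members (5.88%) and of 1.44% of all genes.

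The remaining lists had no common direction in C10. In nucleotide, polyamine and one-carbon synthesis 10 of 25 genes were higher and 7 lower, with the purine enzyme Paics the highest (2.06). Translocation and folding in the endoplasmic reticulum had 7 of 31 higher and 7 lower (median 0.12), with Herpud1 (-1.76) and Xbp1 (-1.07), genes of the unfolded protein response, among the lower ones. In the Notch pathway 3 of 10 were higher and 4 lower, none of them past a 2-fold change.

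Immediate early and heat shock genes, which tissue dissociation is known to induce, were mostly higher in C10 and in the basal cells of the G mice. Hspa1a, the inducible HSP70, went from 69.4 and 107 to 1478 and 621 CPM in the luminal comparison (log2 fold change 3.56 ± 0.34, adjusted p = 6.61e-06), and 1 cell held 27.3% of its UMIs in G mouse 1. Atf3, an early stress factor, went from 435 and 187 to 1199 and 1402 CPM (log2 fold change 2.05 ± 0.27, adjusted p = 8.51e-05). In basal cells the changes were 3.05 ± 0.38 for Hspa1a and 2.24 ± 0.19 for Atf3. Of 24 such genes, 14 were higher and 4 lower in C10 (median 0.40), and 19 were higher and none lower in the basal cells of the G mice (median 1.11). Their summed level was 16744 and 14069 CPM in C6 and 21433 and 19593 CPM in C10. In C8, the differentiated alveolar cells of the G mice, it was 15078 and 13009 CPM, not above C6. For C5, the hormone-sensing cells of these mice, this level was not computed. All cells of a mouse were dissociated together, and the part of this handling in the changes was not tested.

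Basal cells of the same mice gave a second change with the same stages. Between C12 of the NP mice and C13 of the G mice (786 and 1119 cells), 5177 of 11074 genes (46.7%) passed, 2722 (24.6%) higher and 2455 (22.2%) lower in G. The luminal change was then tested against the basal change in 1 fit with the mouse as a term, and it differed for 3615 of 11326 genes (31.9%), with 1704 (15%) above and 1911 (16.9%) below the basal change. Tests of this difference still join stage to cluster, since the luminal side compares C10 with C6.

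Of the genes that also passed the luminal comparison, with a mean of at least 20 CPM in 1 group, the largest differences above the basal change were in Igf2, Tnc, Prr15l, H19, Mlph and Dlx5. Tnc differed by 7.14 ± 0.53 on the log2 scale (adjusted p = 2.21e-11), since it rose in luminal and fell in basal cells (-3.49 ± 0.35). Prr15l, a gene of little known function, went from 12.4 and 12.4 to 32.1 and 41.2 CPM and differed by 6.22 ± 0.79 (adjusted p = 4.47e-07). Dlx5, a homeobox factor, went from 6.04 and 10.8 to 23.7 and 34.9 CPM and differed by 4.91 ± 1.16 (adjusted p = 0.00164). Mlph, a melanosome transport adaptor, changed little in C10, from 13.3 and 20.3 to 26.8 and 30.6 CPM (log2 fold change 0.79 ± 0.27, adjusted p = 0.0292), and lost its call in 7 alternatives beside the 2-fold threshold.

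Large differences below the basal change were in Cxcl5, Adm2, Csf3, St3gal5 and Pgf. Csf3 fell in basal cells too, by 3.64 on the log2 scale, and still differed by -5.20 ± 0.63 (adjusted p = 2.41e-07). Cdkn1a fell in luminal and rose in basal cells (1.29 ± 0.13), a difference of -3.44 ± 0.16 (adjusted p = 9.13e-16).

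By list, 20 of 33 DNA replication genes lay above the basal change and none below. For mitosis 9 of 40 lay above and none below, closer to the share over all genes. For oxidative phosphorylation 25 of 53 were above and 1 below the basal change. The EGF family had 9 of 17 below and 2 above, and shape and matrix genes had 16 of 28 below and 4 above. For milk proteins none of 8 was above and 2, Csn1s2a (-1.74) and Csn3 (-1.13), were below.

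**Figure D4:**
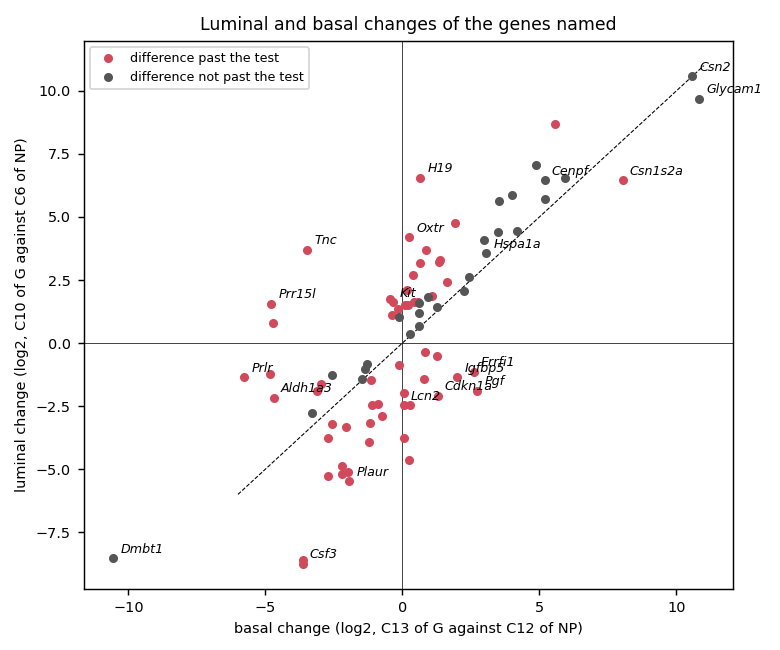
Luminal change (vertical axis, log2) against basal change (horizontal axis, log2) of the genes named here that were tested in both, red where the difference passed an adjusted p of 0.05, with a dashed line at equal change. Csn2 and Glycam1 lie near the line, Oxtr and Tnc above it, and Csf3 below it, and values of genes with no UMI in a group depend on the prior count of the fit.

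The levels of the differentiated alveolar cells C8 of the same G mice (3744 cells) are set beside these changes. These values are a description, since C8 and C10 share the mice and the stage, and no order of the clusters was tested. Of the 445 genes past a 2-fold rise in C10, C8 was higher still for 178 (40.0%), lay between C6 and C10 for 259, and had come less than 50% of the way for 37 (8.31%). Of the 314 genes past a 2-fold fall, C8 was lower still for 190 (60.5%) and lay between for 122, with 18 (5.73%) less than 50% of the way. Csn2 stood at 31078 and 20282 CPM in C8 and Elf5 at 495 and 416 CPM, both above C10, and Aldh1a3 at 24.8 and 41.3 CPM and Csf3 at 4.54 and 4.51 CPM. Kit, Ccnd1, Krt23, Vim and Oxtr were among the many genes higher in C10 than in both C6 and C8. Of these 5, Oxtr and Vim were clearly higher still in the basal cells C13. Kit was at 66.1 and 86.7 CPM in C8, close to C6, Ccnd1 at 194 and 243 CPM, Krt23 at 17.7 and 30.1 CPM, Vim at 9.53 and 10.8 CPM and Oxtr at 20.4 and 15.9 CPM.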

How the data were processed

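Each deposited matrix gives UMI counts, as whole numbers, for 27998 genes in every cell barcode. These counts are the output of Cell Ranger as the authors ran it (STAR alignment to mm10, versions not given in the sources used here) without normalisation between libraries. A deposited table of the authors gives for each cell its library, quality flags, cluster and mitochondrial share of UMIs as a fraction, printed here as a percentage. Conditions came from the sample labels. Cells passing all quality flags were used. The authors had removed a doublet cluster, and no doublet caller was run here. Of 791 cells carrying 1 of 392 barcodes found in more than 1 library, 0 were C6 or C10 cells passing quality. No column of sample values was left out.

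UMIs were summed per mouse and cluster and tested with edgeR 4.0.16 in R 4.3.3 (TMM normalisation, filterByExpr with minimum count 10 and minimum total count 15, quasi-likelihood F-test, Benjamini-Hochberg threshold 0.05), with 2 residual degrees of freedom. Only the libraries compared entered each fit, and the difference from basal cells had the mouse as a term. Fits were tested on simulated counts first. DESeq2 1.42.0 and the other settings named in the closing section were alternatives. Python 3.11.15, numpy 2.4.6, scipy 1.17.1, pandas 2.3.3 and matplotlib 3.10.9 were used.

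The members, the 32 gene lists and the tests were chosen with earlier results of these data known. Genes were named by a rule: the 12 largest rises and the 12 largest falls whose level reached 20 CPM in 1 group and whose mice did not overlap, the 6 largest in each direction of the difference from basal cells, 57 genes that the study names, and list members. A few genes under this rule are not reported here. Gene positions come from the GRCm38 annotation through the gene IDs, and promoter sequences are RefSeq's, matched by symbol. Since every library is 1 mouse, p-values rest on the spread between 2 mice per stage. The test draws the spread of each gene towards a spread shared over genes. This shared part weighed 10.06 prior degrees of freedom in the luminal fit, 14.3 in the basal fit and 25.9 in the difference fit. Very small p-values therefore do not measure the spread of 1 gene alone. A value after ± is the absolute log2 fold change divided by the square root of the F statistic. A fold against a group with no UMI is a bound on a floor of 3 UMIs over the group, and ratios with 1 to 3 UMIs carry 95% counting intervals.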

Additional observations from a re-analysis of the deposited data

Results flagged for a closer look

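These genes are given because their change from NP to G differed between luminal cells (C10 against C6) and basal cells (C13 against C12) in a test of the difference itself, with edgeR's quasi-likelihood test at an adjusted p of 0.05 and the mouse as a term. Values are the luminal log2 change minus the basal log2 change. Among all genes tested 31.9% passed this test. Groups of 2 mice are too small to look for a mouse far from the others. For Igf2, Adm2 and Cxcl5, which had no UMI in a luminal group, the value depends on the prior count of the fit and is no bound.

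Some genes moved in opposite directions, each past its own test. Tnc (7.14), Prr15l (6.22) and Mlph (5.47) rose in luminal and fell in basal cells. The cell cycle inhibitor Cdkn1a (-3.44), the EGF receptor Egfr (-2.30) and its feedback inhibitor Errfi1 (-3.80), the binding protein Igfbp5 (-3.396), the growth factor Pgf (-4.72) and the droplet protein Plin2 (-1.84) fell in luminal and rose in basal cells. Beside the 2-fold threshold, the luminal calls on Mlph, Egfr, Pgf and Plin2 were lost in alternatives given above.

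Genes that rose in luminal cells with no call in basal cells, or too few basal counts to test, differed too. In the cell cycle these were Ccnd1 (1.46), E2f1 (2.53) and Mcm5 (2.92). Among progenitor genes they were Ehf (2.15) and Kit (1.999). Others were Oxtr (3.89), a gene of the contractile basal layer, Dlx5 (4.91), Cldn8 (4.27), and Btn1a1 (2.57) of the milk fat globule. Acly (1.43) and Fasn (1.85) of lipid synthesis, Npm1 (1.34) and Tap1 (1.23) completed this group. Igf2 (9.35), H19 (6.20) and Tnfsf11 (5.25) also differed, with nearly all of their C10 UMIs in 5 cells. Genes that rose in both layers, and more in luminal cells, were B2m (0.73), Psmb8 (1.14), Cdk4 (0.98), Rrm2 (2.92), Scd2 (1.87), Krt23 (1.89), Vim (2.27) and Muc15 (0.80). Wfdc12 (3.13) rose more in luminal cells with 92.9% of its C10 UMIs in those 5 cells, and the other C10 cells were at 62.0 and 32.3 CPM against 24.3 and 46.7 CPM in C13.

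Genes that fell in luminal cells with no call in basal cells, or too few basal counts to test, were Cxcl5 (-6.65), St3gal5 (-4.90), Itga2 (-3.92), Slc2a1 (-2.81), Lcn2 (-2.57), Cd44 (-2.09) and Myc (-0.80). Genes that fell in both layers, and more in luminal cells, were led by Adm2 (-5.51), Csf3 (-5.20), Plaur (-3.60) and its ligand Plau (-2.81). The amino acid response genes Trib3 (-3.23), Chac1 (-2.66), Slc7a5 (-1.59) and Mthfd2 (-1.34), the chemokines Cxcl1 (-0.80) and Cxcl2 (-1.13), and Lrg1 (-3.01), Aqp3 (-2.76), Plet1 (-2.14), Hmga1 (-1.998), Hbegf (-1.41) and Krt8 (-0.41) belonged there too.

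A smaller fall in luminal than in basal cells was seen for Prlr (4.33), Cited1 (3.50), Aldh1a3 (2.37), Krt18 (1.23) and Cldn4 (1.13). In G mouse 2, 4 cells held 89.5% of the Cited1 UMIs of C10 and 26 of its 52 Prlr UMIs, and the luminal call on Cited1 was lost in 3 alternatives beside the 2-fold threshold. Csn1s2a (-1.74) rose less in luminal than in basal cells, and Csn3 (-1.13) passed as a rise in basal cells and did not pass in luminal cells.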

How the results depend on the processing

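The main counts held within 1.5 times under other normalisation, no filter or the filter of the study, equal cell numbers, no milk protein genes and no cells of high UMI totals. They fell by more under DESeq2, the 2-fold threshold, thinning and no dividing cells, and the basal count also without NP mouse 1. DESeq2 called 2711 genes in the luminal comparison, 3123 in the basal one and 1183 for their difference, all of them also called by edgeR. The 2-fold threshold left 759, 627 and 454 genes, and 155 of the list members. Thinning cells to 2000 UMIs left 1661, 3063 and 1263 genes and 273 list members, with fewer genes tested, and leaving out dividing cells left 1359 genes and 224 list members in the luminal comparison. Without 1 mouse the luminal count ranged from 3523 to 4289, the basal count from 3225 (without NP mouse 1) to 5074 and the count of differences from 2606 to 3166.

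Same-numbered mice did not vary together (correlation of deviations -0.04 in luminal and -0.03 in basal cells), so the numbers do not pair the mice. With the replicate block 4482 luminal, 5332 basal and 2956 differing genes were called, and 2950 differing genes with no mouse term. It ended no call of a gene named here.

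Of 93 named genes tested, 90 were called, and 76 kept the call in each alternative that tested them, the 2-fold threshold aside. The share of mitosis cells stayed higher in C10 in each setting, with differences of 36.7 to 48.7 percentage points. Some directions turned. Csn3, log2 fold change of C10 against C6, was 0.22 without NP replicate 2 and 0.11 without G replicate 2, with a lowest value of -0.97 without G replicate 1. Krt14, log2 fold change of C10 against C6, was -0.30 without G replicate 2 (highest 0.77, without NP replicate 1) and -0.36 without dividing cells. Ribosome biogenesis, members lower, came to 0 against 1 higher at the 2-fold threshold. Nucleotide, polyamine and one-carbon synthesis, members higher, came to 7 against 8 lower without NP replicate 2 (lowest 6, without G replicate 1) and to 3 against 4 without dividing cells. Notch pathway, members lower, came to 1 against 3 higher under DESeq2, without G replicate 1 and with equal cell numbers, and to 0 against 1 without dividing cells. Insulin and IGF pathway, members higher, came to 0 against 1 lower without dividing cells. The cause was not tested. Depth limits the low genes: with 89 C10 cells in G mouse 1, low genes there rest on few UMIs, and a gene needed the level of 10 UMIs in a sum of median size, in at least 2 sums, to be tested.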
